A study of Mus musculus with 2 samples.

Results

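The genes described here are the Wnt ligands with their receptors, secreted antagonists and nearest signalling partners. They are the mouse genes whose symbol starts with Wnt, Fzd, Sfrp, Dkk or Dvl followed by a digit, together with Lrp5, Lrp6, Ctnnb1, Axin1, Axin2, Tcf7, Lef1 and Porcn. Through the RefSeq accession of their probes, 48 such genes (58 probes) were found among the 20654 named genes on the arrays; of the matching symbols, 1 (Fzd10os, an antisense RNA) had no named probe. RNA came from osteoclasts, the multinucleated cells that resorb bone, grown in culture from mouse bone marrow. Adherent precursors obtained with the growth factor M-CSF were then kept in M-CSF plus RANKL, the main inducer of osteoclasts. The wild type group and the Dnmt3a knockout group each had 1 array, and both were labelled female on the C57BL/6 strain background. The knockout lacks a DNA methyltransferase that places new methyl groups on cytosine, and the allele, the cells in which it was deleted, the age of the mice and any pooling are not given in the sources used here.

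Wnt proteins are secreted, lipid-modified ligands. In the canonical branch they bind a Frizzled receptor and the co-receptor Lrp5 or Lrp6, Dishevelled proteins relay the signal, and beta-catenin escapes the destruction complex built on Axin and enters the nucleus, where it works with factors of the Tcf/Lef family. Other Wnts act without beta-catenin, through Frizzled or Ror receptors. Secreted Sfrp proteins bind Wnts, and several Dkk proteins block the Lrp co-receptors. In bone, canonical signals favour osteoblasts and restrain osteoclasts, while Wnt5a is known to promote osteoclast formation.

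On the knockout array the secreted antagonists Sfrp4 and Sfrp2 were lower, 2.18-fold and 2.01-fold, and Dkk3 was 1.62-fold lower. The receptors Fzd4, Fzd2 and Fzd3, the ligand Wnt5a and the Dishevelled gene Dvl1 were also lower, by 1.42-fold to 1.57-fold. Wnt6 (1.48-fold) and the co-receptor Lrp6 (1.34-fold) were higher relative to the bulk of the genes. With spike-in scaling Wnt6 was at a log2 difference of 0.03, within its error, and the brighter Lrp6 probe was lower. The other Lrp6 probe, at a log2 difference of 0.64, exceeded the 0.53 by which that scaling lowers each difference. That value still lies within the 0.30 to 0.73 given by single spike-in probes, so its sign is not settled. Ctnnb1, which encodes beta-catenin, and the co-receptor Lrp5 differed by less than the scanner error. With spike-in scaling, however, their log2 differences were -0.66 and -0.57. Many of the ligands had no signal above background on either array.

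The signal is the scanner software's processed intensity, which has no unit. Of the 59305 spots on each array that were not controls, 52.7% in wild type and 59.7% in knockout cells were well above background, and the dimmest such probes read 25.8 and 17.7. Differences are knockout minus wild type on the log2 scale, after the 75th percentile of each array was set equal. Each difference carries an error combined from the errors that the scanner software gave for its spots (median 0.20 over the genes measured on both arrays). Probes printed in many spots had differences that scattered with a median SD of 0.07. Neither covers variation between cultures or mice. With 1 array per genotype there was no replicate and no test across samples, and the number of arrays limits the precision of every value. Scaling to 8 spike-in probes instead lowers each difference by 0.53 (single probes 0.30 to 0.73), so that the sign of a difference between 0 and 0.53 depends on the scaling. Between 0.53 and 0.73 the sign depends on the spike-in probe taken, and is not settled either. The Dnmt3a probe gave 7042 in wild type and 1822 in knockout cells (log2 difference -1.92, error 0.20), lower in the library labelled knockout; whether the probe lies in the deleted part is not stated.

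The osteoclast identity was read from 10 markers, all well above background on both arrays, among them Acp5 (451856 and 442434) and Ctsk (413300 and 356772). Their median log2 difference was -0.57. Of 8 macrophage markers 7 were found, all measured, with a median of 0.86. Of 16 markers of stromal cells and osteoblasts 15 were found and 13 measured on both arrays, 11 of them lower on the knockout array with a median of -0.70; Runx2 and Lum were not well above background on either. Among the other lists, neutrophil markers (5 measured) had a median of 0.49, endothelial (3) 0.08, B lymphocyte (4) 0.13 and T lymphocyte markers (3) 0.23; these 4 medians lie below 0 with spike-in scaling.

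Of the 48 members, 30 (62.5%) were well above background on both arrays, against 65.3% of all named genes. On each array 32 were well above background, where 66.1% of all genes were in wild type and 70.7% in knockout cells. On the wild type array only there were 2 (Axin2 and Fzd9; 0.862% of all genes) and on the knockout array only 2 (Fzd6 and Wnt9b; 5.48% of all genes). The other 14 were not well above background on either array, and they have no fold. Of the 30 members measured on both arrays, 20 lay below 0 and 10 above, with a median of -0.12, where all 13479 measured genes had a median of 0.01 and 48.1% below and 51.9% above 0. With spike-in scaling Wnt6, at 0.03, was the sole member above 0, and the medians were -0.65 and -0.52.

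**Figure D1:**
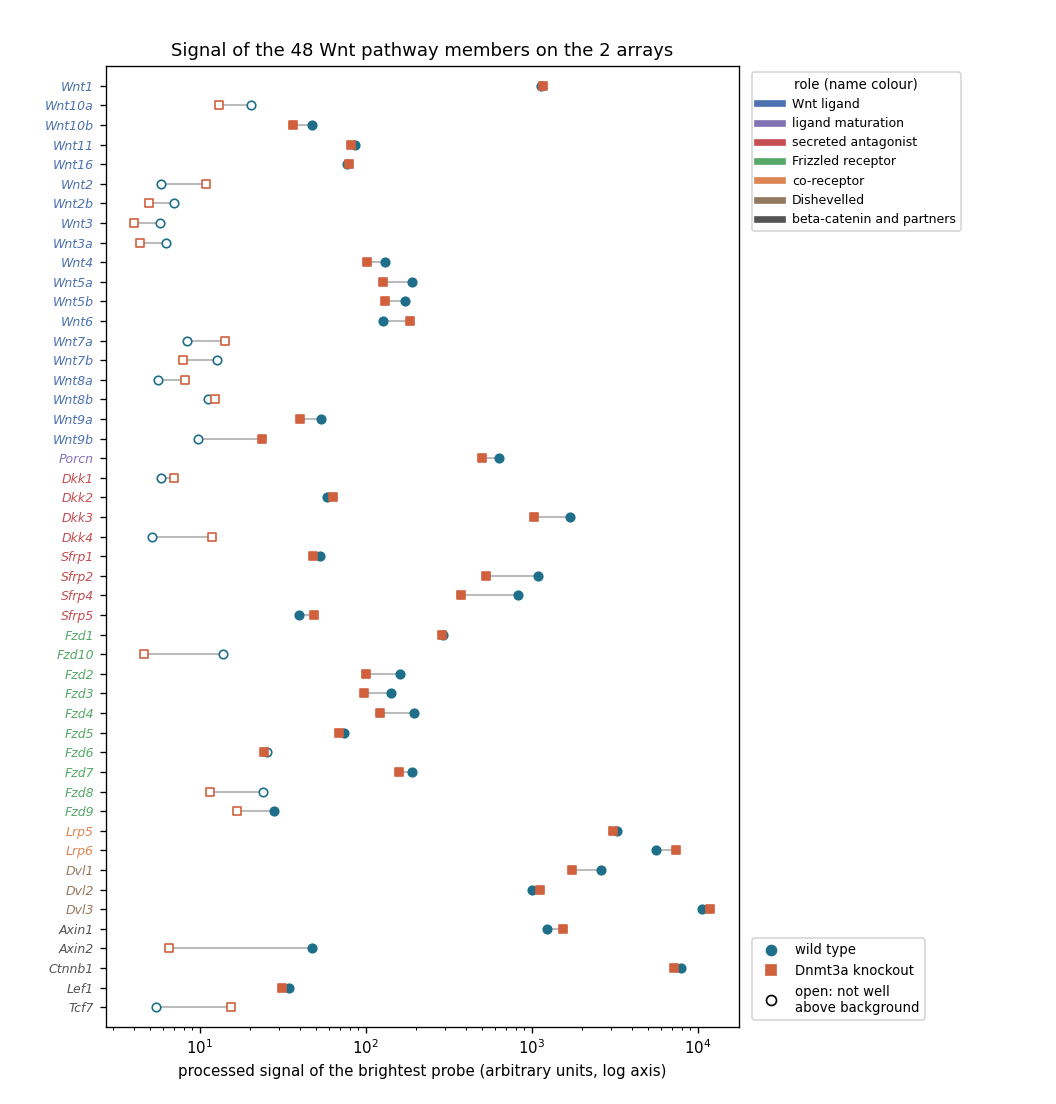
Processed signal of the brightest probe of each of the 48 members, by role (colour of the name), from wild type (circles) and from Dnmt3a knockout cells (squares), on a log axis; open symbols are not well above background. Sfrp2, Sfrp4 and Dkk3 lie clearly to the left on the knockout array, as does Axin2, whose knockout signal of 6.51 is within background.

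Past 2-fold there were 2 members lower (Sfrp4 and Sfrp2) and 0 higher, where 0.727% of all measured genes were at least 2-fold lower and 0.824% at least 2-fold higher. Of the genes past 2-fold 53.1% were higher, a share of 39.8% with quantile normalization and 1.73% with spike-in scaling. With spike-in scaling 8 members were past 2-fold in the lower direction, as were 1024 of all 13479 genes (7.6%). With the measured genes put in 4 equal bands by mean level, Sfrp4 and Sfrp2 fall in the second band from below, in which 19 of 3370 genes (0.564%) were that much lower. A difference of more than 2 scanner errors was seen for 8 members in the lower direction (26.7%, against 8.94% of all genes) and for 2 in the higher direction (6.67%, against 10.7%). The 8 were Sfrp4, Sfrp2, Dkk3, Fzd4, Fzd2, Fzd3, Wnt5a and Dvl1. The dimmest band held 17 members, 4 of them among these 8, where 11.5% of all genes in that band were lower by as much.

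**Figure D2:**
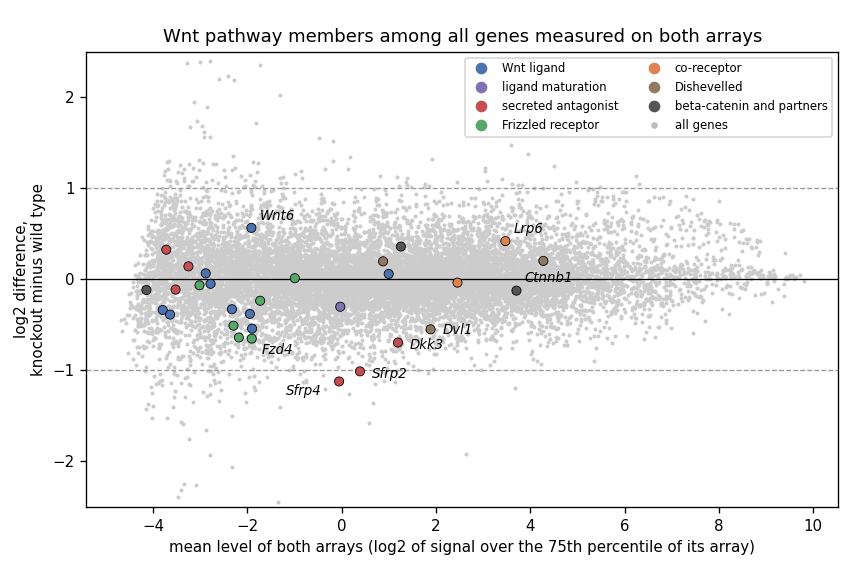
Log2 difference (knockout minus wild type) against the mean level of both arrays, for the genes measured on both arrays (grey) and the 30 members (coloured by role); dashed lines mark 2-fold, and 10 genes outside ±2.5 are not drawn. Sfrp4 (-1.12) and Sfrp2 (-1.01) are the members beyond the lower dashed line, and no member passes the upper one.

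Among the secreted antagonists, Sfrp4, a Wnt-binding protein whose loss thins cortical bone, read 828 in wild type and 373 in knockout cells. Its log2 difference was -1.12 (error 0.20). Sfrp2, a Wnt-binding protein made by mesenchymal cells, read 1083 and 527, for a log2 difference of -1.01 (error 0.20). Both genes rest on 1 probe each, and Sfrp2 sits at the 2-fold mark: with normexp background correction it was at -0.89 and no longer past it. The other genes with an Sfrp symbol stayed near the error. Sfrp1 was at 52.7 and 47.8 (log2 difference -0.11, error 0.31) and Sfrp5 at 39.5 and 48.5 (0.33, error 0.33; -0.21 with spike-in scaling). All 4 genes with an Sfrp symbol were thus measured, and the differences past the error were those of Sfrp2 and Sfrp4. Frzb, read with the other pathway genes, was not well above background on either array (6.08 and 4.17).

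Dkk3, a divergent Dkk protein that does not block the Lrp co-receptors in the way of Dkk1, gave 1697 in wild type and 1028 in knockout cells. Its log2 difference was -0.69 (error 0.20), from 1 probe. Dkk2 was dim, at 58.3 and 63.1 (log2 difference 0.14, error 0.26; -0.39 with spike-in scaling). Dkk1, the classical blocker of Lrp5 and Lrp6, and Dkk4 were not well above background on either array, with signals of 5.82 and 6.97 for Dkk1 and 5.16 and 11.8 for Dkk4. The median of negative control spots was 6.06 in wild type and 4.24 in knockout cells.

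Of the 13 stromal and osteoblast markers measured on both arrays, 11 (84.6%) lay below 0, against 48.1% of all genes. By more than 2 scanner errors, 9 of the 13 (69.2%) were lower, against 8.94% of all genes. Among these, Col1a1, the main collagen chain of bone, was at 19790 and 11744 (log2 difference -0.72). Pdgfrb, a receptor of stromal cells, was at 858 and 461 (-0.87). Above 0 were Lepr, at 6891 and 7561 (0.16), and Dcn, at 50.4 and 50.6 (0.03). The listed marker Bglap was not found. The summed unscaled signal of the 15 markers found was 156097 in wild type and 104728 in knockout cells, with Runx2 and Lum within background. Most of this sum came from Sparc and Col1a2. In the 10 osteoclast markers the summed unscaled signal was 1149430 and 983321. Most of this sum came from Acp5 and Ctsk, the least changed of the 10 (log2 differences -0.0005 and -0.18). By more than 2 scanner errors, 8 of the 10 (80%) were lower, against 8.94% of all genes. The part of either marker list in the lower Sfrp2, Sfrp4 and Dkk3 was not tested, and in RNA from a whole culture fewer cells of a type and less RNA per cell cannot be told apart.

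**Figure D3:**
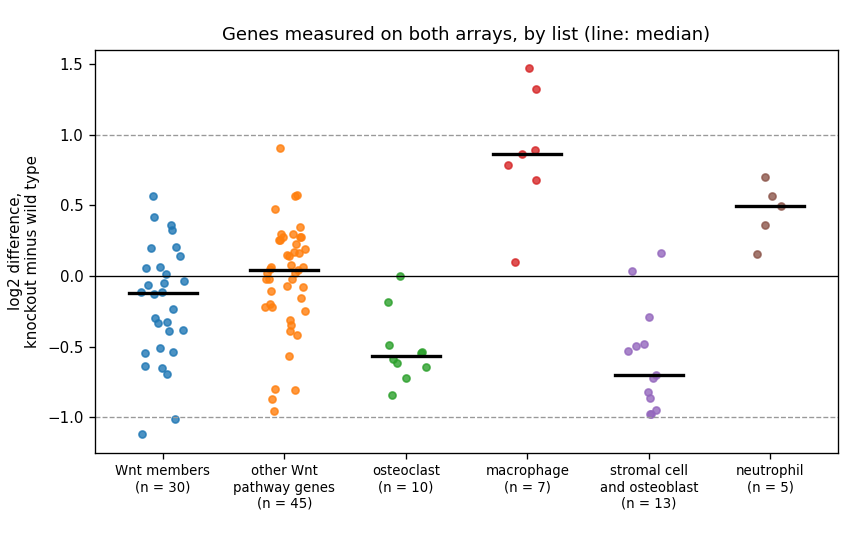
Log2 difference (knockout minus wild type) of the genes measured on both arrays in 6 lists; points are genes, thick lines medians, and dashed lines mark 2-fold. The Wnt members are spread around -0.12, the other pathway genes around 0.04 (-0.49 with spike-in scaling), and the stromal and osteoblast markers lie mostly below 0 with a median of -0.70.

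The sequences before the start sites of Sfrp2, the past-2-fold antagonist with an entry, and of Axin2, a target gene seen on the wild type array alone, are shown because Dnmt3a acts on CpG dinucleotides; DNA methylation was not measured here. They are the 250 bases upstream of the RefSeq start on GRCm38.p6, plus strand, chr3:83766071-83766320 for Sfrp2 and chr11:108920099-108920348 for Axin2, 5′ to 3′, with each CpG in capitals.
Sfrp2: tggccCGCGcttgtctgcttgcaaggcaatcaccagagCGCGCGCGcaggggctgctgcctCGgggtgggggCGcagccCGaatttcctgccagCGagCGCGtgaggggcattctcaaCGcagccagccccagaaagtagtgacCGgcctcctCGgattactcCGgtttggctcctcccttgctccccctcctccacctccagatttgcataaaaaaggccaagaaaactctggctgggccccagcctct
Axin2: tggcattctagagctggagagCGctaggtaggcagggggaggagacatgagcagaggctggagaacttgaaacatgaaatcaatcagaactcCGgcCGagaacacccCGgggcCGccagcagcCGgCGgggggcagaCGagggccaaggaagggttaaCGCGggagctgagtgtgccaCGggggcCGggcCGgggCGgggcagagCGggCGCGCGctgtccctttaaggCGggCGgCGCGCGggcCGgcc
The Sfrp2 window holds 16 CpG and the Axin2 window 24, and 25.4% and 12% of all 32851 such windows hold at least as many. Over the 40 windows of the 32 members with an entry the median was 21.5 CpG, against 6 over all windows. All windows come from 27025 genes, not limited to those on the arrays, and a gene can have several windows. The Tcf/Lef core letters CTTTGA, searched on both strands, were in neither window shown. They were in 12.5% of the member windows and 13.8% of all windows, and CTTTGT, the other form searched, was in 15% and 16.5%.

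Axin2 is a negative feedback gene that canonical signalling induces. Its brighter probe gave 47.6 on the wild type array and 6.51, within background, on the knockout array, which bounds it as at least 2.63-fold lower (log2 bound -1.40). The bound sets the wild type signal against the dimmest probe still well above background in the knockout. Its other probe was within background on both arrays, at 6.13 and 4.23, so a single dim spot carries this value. Canonical signalling was not measured here, and this spot alone does not report it. Of the 178 genes seen on the wild type array alone, 75.3% had a bound of at least 2-fold, and the Axin2 bound was -0.56 after normexp background correction.

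Beta-catenin itself, its scaffold and its nuclear partners were read next. Ctnnb1 gave 7943 in wild type and 7139 in knockout cells, with a log2 difference of -0.12 (error 0.14), or -0.66 with spike-in scaling. In the main setting its 2 spots gave -0.10 and -0.14. Axin1, the scaffold of the destruction complex, was at 1228 and 1545 (log2 difference 0.36, error 0.20; -0.17 with spike-in scaling). Of the transcription factors, Lef1 was close to background, at 34.4 and 31.1 (log2 difference -0.12, error 0.35), and both probes of Tcf7 were within background on both arrays. Lef1 turned to 0.04 with normexp.

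Dishevelled genes, which carry the signal from Frizzled to the cytoplasm, did not go one way. Dvl1 gave 2604 in wild type and 1744 in knockout cells (log2 difference -0.55, error 0.20). Dvl2 was at 1001 and 1124 (0.20, error 0.20) and Dvl3 at 10531 and 11875 (0.20, error 0.20). With spike-in scaling these last values became -0.33 for both, and Dvl1 stayed the lowest of the 3 at -1.08.

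Of the co-receptors, Lrp6 was higher relative to the bulk of the genes on both of its probes. The brighter gave 5591 in wild type and 7326 in knockout cells (log2 difference 0.42, error 0.20; -0.11 with spike-in scaling), and the dimmer 320.2 and 488.9 (0.64, error 0.21). Lrp5, whose activity sets bone mass, was at 3236 and 3093 (-0.04, error 0.20), or -0.57 with spike-in scaling. Without spike-in scaling, the knockout signal was thus higher for both Lrp6 probes and close to the wild type for Lrp5.

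Frizzled receptors bind the ligands, and 6 of the 10 were measured on both arrays, 5 of them below 0, where 48.1% of all genes were. Fzd4, also the receptor of norrin in retinal vessels, gave 194.8 in wild type and 121.5 in knockout cells (log2 difference -0.65, error 0.22). Its spot lies near an array edge, in an area where 1.62% of the measured genes were past 2-fold in the lower direction; centred on the genes in its own block of the array, Fzd4 was at -0.70. Fzd2 gave 160.5 and 101.0 (-0.64, error 0.22), which became -0.40 after normexp, and its other probe was within background. Fzd3, a receptor of the planar polarity branch, gave 141.8 and 97.6 (-0.51, error 0.22).

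The other Frizzled genes were nearer 0. Fzd7 was at 190.9 and 158.8 (log2 difference -0.24, error 0.21), but its other probe was seen on the knockout array alone, at least 1.48-fold higher there. The Fzd7 probes point in different directions, but neither by more than 2 scanner errors, so no direction is settled. Fzd5 was at 73.8 and 69.1 (-0.06, error 0.25), and its other probe at 47.6 and 63.8 (0.45, error 0.27). Fzd1 was at 291.5 and 288.2 (0.01, error 0.21; -0.52 with spike-in scaling). Dim receptors completed the family. Fzd9 was above background on the wild type array alone (27.8 and 16.7), with a bound of 1.54-fold lower in the knockout. Its log2 difference of -0.70 (error 0.47) was within 2 scanner errors, so no direction is settled for Fzd9. Fzd6 was above background on the knockout array alone, yet its signals of 25.4 and 24.4 give no fold. Fzd8 and Fzd10 were within background on both arrays.

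**Figure D4:**
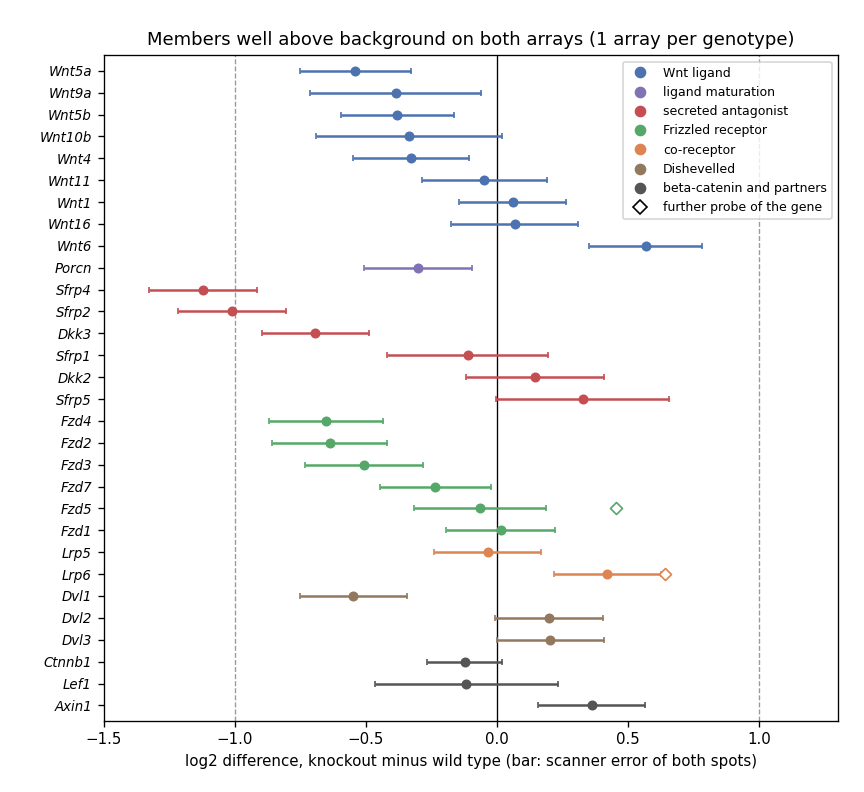
Log2 difference (knockout minus wild type) of the 30 members measured on both arrays, by role; bars are the scanner error of both spots, open diamonds a further probe of the gene, and dashed lines 2-fold. Sfrp4, Sfrp2, Dkk3, Fzd4, Fzd2, Dvl1, Wnt5a and Fzd3 lie farthest to the left, and Wnt6 (0.57) and the further Lrp6 probe (0.64) farthest to the right; spike-in scaling would move every point left by 0.53.

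Of the 19 Wnt ligands 9 (47.4%) were measured on both arrays, against 65.3% of all genes, and 6 of the 9 lay below 0, against 48.1%. Wnt5a, a ligand of the branch without beta-catenin, gave 188.4 in wild type and 126.9 in knockout cells (log2 difference -0.54, error 0.21). Wnt5b, its close relative, gave 172.6 and 129.9 (-0.38, error 0.22). Wnt6 went the other way, at 127.1 and 184.3 (0.57, error 0.22), but with spike-in scaling it was at 0.03, within its error. These 3 ligands had 1 probe each.

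Wnt10b, a ligand that favours bone formation, was at 47.2 and 36.7 (log2 difference -0.34, error 0.35). Wnt9a was at 53.5 and 40.1 (-0.39, error 0.33). Wnt4 was at 130.1 and 101.6 (-0.33, error 0.22). Its other probe, at 20.2 and 31.9, was seen on the knockout array alone, at least 1.26-fold higher. That log2 bound of 0.34 is smaller than the 0.53 by which spike-in scaling lowers each difference. The Wnt4 probes point in different directions, but neither by more than 2 scanner errors, so no direction is settled. Wnt11 was at 86.4 and 81.8 (-0.05, error 0.24). Wnt16, which osteoblasts make and which restrains osteoclast formation, was at 77.2 and 79.2 (0.07, error 0.24; -0.47 with spike-in scaling), with a further probe within background.

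Wnt1 calls for care. Its brighter probe gave 1140 and 1164 (log2 difference 0.06, error 0.20; -0.47 with spike-in scaling), but its other probe was within background on both arrays, at 6.13 and 4.35. The probes thus do not settle whether the transcript is present. Wnt9b passed the background mark on the knockout array alone (9.83 and 23.9), below the lowest such signal of the wild type array once scaled, and has no fold; of all genes seen on the knockout array alone, 9.99% had a bound of at least 2-fold. The 9 ligands Wnt2, Wnt2b, Wnt3, Wnt3a, Wnt7a, Wnt7b, Wnt8a, Wnt8b and Wnt10a were within background, with signals from 5.61 to 20.4 in wild type and from 4.04 to 14.2 in knockout cells. Porcn, the acyltransferase that Wnt proteins need for secretion, was at 633.7 and 504.0 (-0.30, error 0.20).

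**Figure D5:**
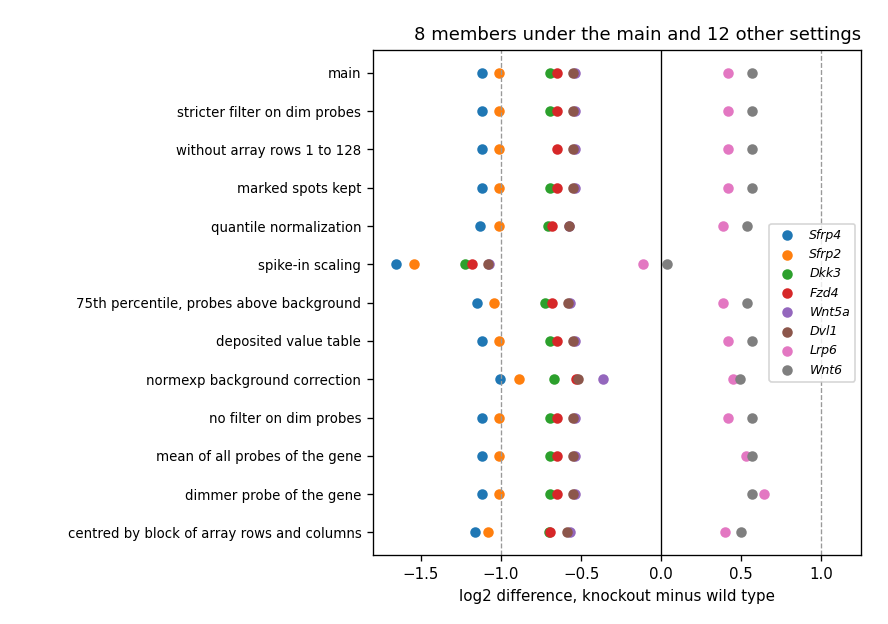
Log2 difference (knockout minus wild type) of 8 members under the main setting and 12 others; dashed lines mark 2-fold. Sfrp4 stays at or beyond the lower line (-1.01 to -1.65), Sfrp2 crosses it with normexp (-0.89), Lrp6 changes side with spike-in scaling (-0.11), and Dkk3 has no value when the first rows of the array are left out.

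A list of 63 other genes of the pathway was read in the same way, and 45 of them (71.4%) were measured on both arrays. Past 2-fold there were 0 in either direction, their median log2 difference was 0.04 (-0.49 with spike-in scaling), and 25 were above 0 (20 below). By more than 2 scanner errors 6 were lower (13.3%, against 8.94% of all genes) and 4 higher (8.89%, against 10.7%). The lowest was Tcf7l1, a mostly repressive Tcf factor, at 69.5 and 35.0 (-0.96, error 0.27), which became -0.37 with normexp. Rspo2, a secreted amplifier of Wnt signals, was at 613.7 and 329.0 (-0.87, error 0.21).

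Ryk, a Wnt-binding co-receptor, was at 258.6 and 144.7 (log2 difference -0.81, error 0.21). Ror2, a receptor of Wnt5a that was named after its value was seen, was at 104.3 and 58.5 (-0.80, error 0.25). At the high end were Bcl9, a coactivator of beta-catenin, at 59.6 and 109.6 (0.91, error 0.26; 0.39 with normexp), the ciliary receptor Tmem67 (0.57, error 0.21) and the corepressor Tle3 (0.56, error 0.20). With spike-in scaling these were at 0.38, 0.04 and 0.03, the values of Tmem67 and Tle3 within their errors. Of the 4 listed genes seen on 1 array alone, 0 had a bound past 2-fold. Gpc4 was seen on the wild type array alone, as were 0.862% of all genes. Nkd1, Prickle2 and Znrf3 were seen on the knockout array alone, as were 5.48% of all genes.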

How the data were processed

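Total RNA of each culture was labelled with Cy3 and hybridised to 1 Agilent mouse array, both on 1 slide. The authors deposited scanner output in which, per the file headers, the intensity of a spot is background-subtracted and spatially detrended (Feature Extraction 10.10.1.1). The submitters' processing notes give version 9.1 instead. No normalization between arrays had been applied to this deposited intensity. A deposited value table holds it times 1 factor per array (1.55 and 1.54), whose basis is unknown; it served as an alternative.

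Here, log2 intensity minus that of the 75th percentile of all spots other than controls was used. Uneven or outlying spots, as the scanner software marked them on one or the other array (157 and 172), were dropped; no spot was saturated. Replicate spots were averaged as log2 values, the brightest probe stood for its gene, and a gene counted as measured where most of its spots were well above background. A bound divides the bright signal by the dim one or, if higher, by the dimmest signal well above background there. Accessions without versions named 27224 of 55649 probes from a RefSeq table of GRCm38.p6, whose promoter entries cover 32 of the 48 members.

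With 1 array per genotype there was no test. All members seen on at least 1 array are named, and those seen on neither are named or counted by family. Of the other pathway genes, those past 2-fold (bounds included) and the 3 highest and 3 lowest are named. Ror2 and those seen on 1 array alone were added after their values were seen. The members and lists were chosen with earlier results of these data known. Alternatives changed the scaling, value source, filter on dim probes, probe choice, array position, marked spots and background correction. That correction was normexp (limma 3.58.1, offset 50) on median spot signals, in place of the mean signals first planned, which are not used here. The scripts were tested on simulated data with Python 3.11.15 and R 4.3.3.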

Additional observations from a re-analysis of the deposited data

How the results depend on the processing

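Results were recomputed under 12 alternatives. The 2 members at least 2-fold lower became 8 with spike-in scaling (adding Dkk3, Dvl1, Fzd2, Fzd3, Fzd4 and Wnt5a) and 1 with normexp (Sfrp4). With no filter on dim probes 5 were lower, and 3 members were at least 2-fold higher. The added lower members (Axin2, Fzd8 and Fzd10) and the 3 higher all came from probes within background on at least 1 array. The median of the members moved from -0.12 to -0.26 with quantile normalization, -0.65 with spike-in scaling, -0.30 with the stricter filter and -0.24 without the first rows of the array, which hold 10 of the measured members. With the stricter filter, 21 members rather than 32 were above background on the wild type array. The other pathway genes had 1 member at least 2-fold lower with quantile normalization (Tcf7l1), 5 with spike-in scaling and 4 with no filter, where 3 were higher. Those past 2-fold with no filter were likewise from probes within background on at least 1 array. The median of the other pathway genes became -0.49 with spike-in scaling. The remaining alternatives kept these counts within 1.5 times. The Axin2 bound ran from -1.93 with spike-in scaling to -0.56 with normexp. The cause was not tested beyond the construction of each alternative. Over all measured genes, 98 lower and 111 higher past 2-fold became 1024 and 18 with spike-in scaling, 26 and 42 with normexp, 466 and 1184 with no filter, 35 and 49 with the stricter filter and 48 and 65 without the first rows. The share of higher genes among those past 2-fold was 53.1%, against 39.8% with quantile normalization and 1.73% with spike-in scaling. No detection count was made without a filter. No paired analysis was possible because each genotype had 1 array. Signal over background left 14 members with no fold and 4 with at most a bound.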
